A study of Mus musculus with 13 samples.

Results

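Of the 18953 glucocorticoid receptor (GR) peaks that the authors listed as wild-type-specific under dexamethasone with lipopolysaccharide (Dex+LPS), 5836 (30.8%) lay between genes at 1 to 100 kb from the start of the gene they were assigned to. They were chosen by 3 measured values of the authors' peak annotation: membership of the wild-type-specific list, a position upstream or downstream of the gene, and an absolute distance to the gene start above 1000 bp and at most 100000 bp. The 5836 regions made up 61.4% of the 9510 upstream or downstream peaks of that list. A further 466 such peaks lay at 1000 bp or less and 3208 beyond 100 kb. The 3 Dex+LPS lists held 24673 peaks in all. Absence from the mutant list and distance from the gene were thus fixed by the choice and are given as descriptions.

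GR is a ligand-activated nuclear receptor encoded by Nr3c1. After binding a glucocorticoid such as dexamethasone (Dex), it enters the nucleus and can bind a palindromic DNA element, the glucocorticoid response element (GRE), as a dimer. It can also reach chromatin together with other factors such as AP-1, a dimer of Fos and Jun proteins, and NF-kB. Much of its binding lies away from promoters, at enhancers, and many anti-inflammatory and metabolic target genes have such distal sites.

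Mouse embryonic fibroblasts were prepared from male C57BL/6 embryos at day 13.5 and cultured for 7 days, and 1 antibody against GR was used for chromatin immunoprecipitation and sequencing in all 13 libraries. The genotypes were GR wt / wt, GR Zn / Zn, a mutant in a zinc finger of the DNA-binding domain whose data the labels name with the change C437G, and GRKO/KO, a knockout of the receptor. Head and internal organs of the embryos had been removed. Cells had 1 µM Dex for 16 h with 100 ng/µl lipopolysaccharide (LPS, a bacterial cell wall component) for 3 h, in 3 wild-type, 4 mutant and 2 knockout libraries, or the same Dex alone, in 2 wild-type and 2 mutant libraries. The question was which receptor binding depends on an intact zinc finger. The Dex+LPS data are merged lists without knockout peaks, and each peak is 200 bp wide and carries no height or score. They therefore have no spread between libraries, and tests between peak classes run over peaks and cover counting error only. Read depth is unknown, so a peak missing from the mutant list may be weaker there rather than absent. Positions are in mouse build mm10.

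The bases of a few bound regions could be read where a region overlapped the promoter window (250 bases before to 50 after a gene start) of a gene in the RefSeq table for GRCm38.p6. This held for 68 of the 5836 regions, for 48 of them over at least 100 bases and for 16 in full. The 8 stretches shown, given on the forward strand, let a reader see where GRE-like and AP-1-like letters lie in bound DNA. Each lies in the promoter window of a RefSeq gene other than the assigned gene it is labelled with. In the order shown these are Gm34455, Gm33424, Gm40164, Gm33033, Gm41309, Gm42312, Gm39984 and Gm9875. They were picked after their letters were seen: regions at listed genes (Dusp1, Nfil3, Cyr61), a region at a gene with 7 such peaks (Ptpn1), and some of the regions with a match to the GRE core. A region upstream of 1700020N01Rik (chr10:21573853-21574052, read over 158 bases) also held the GRE core and is not shown. Capitals mark the GRE core ACANNNTGT, its single arm AGAACA and the AP-1 motif TGANTCA on either strand. The first is part of the region 4150 bp downstream of the start of Dusp1 (chr17:26504222-26504421), read over 124 bases. The second lies 4859 bp upstream of Nfil3 (chr13:52985798-52985997). The third lies 16895 bp downstream of the start of Cyr61 (chr3:145632990-145633189), and the fourth 54631 bp upstream of Ptpn1 (chr2:167877596-167877795). The others lie 7492 bp upstream of 2310043O21Rik (chr15:38602327-38602526), 37571 bp upstream of Dennd4c (chr4:86710885-86711084), 16074 bp downstream of the start of Zfas1 (chr2:167079196-167079395), and 14070 bp upstream of Trdmt1 (chr2:13558634-13558833, read over 181 bases).
Dusp1: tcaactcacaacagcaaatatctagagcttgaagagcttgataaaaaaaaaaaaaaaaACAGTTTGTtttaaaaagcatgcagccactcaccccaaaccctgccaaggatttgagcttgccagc
Nfil3: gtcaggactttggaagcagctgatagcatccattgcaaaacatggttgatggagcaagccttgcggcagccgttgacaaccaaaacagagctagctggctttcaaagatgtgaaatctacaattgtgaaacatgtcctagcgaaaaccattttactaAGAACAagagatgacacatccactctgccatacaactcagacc
Cyr61: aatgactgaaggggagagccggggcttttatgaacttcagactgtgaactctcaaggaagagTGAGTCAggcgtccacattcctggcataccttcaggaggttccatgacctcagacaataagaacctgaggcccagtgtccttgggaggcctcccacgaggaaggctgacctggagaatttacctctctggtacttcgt
Ptpn1: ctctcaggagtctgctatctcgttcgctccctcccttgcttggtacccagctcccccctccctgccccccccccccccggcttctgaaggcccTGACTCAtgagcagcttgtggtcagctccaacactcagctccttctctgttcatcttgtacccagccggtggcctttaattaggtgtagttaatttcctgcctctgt
2310043O21Rik: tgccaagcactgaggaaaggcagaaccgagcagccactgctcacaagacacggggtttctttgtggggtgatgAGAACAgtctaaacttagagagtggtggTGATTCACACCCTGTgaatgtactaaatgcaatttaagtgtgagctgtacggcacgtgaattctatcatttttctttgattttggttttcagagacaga
Dennd4c: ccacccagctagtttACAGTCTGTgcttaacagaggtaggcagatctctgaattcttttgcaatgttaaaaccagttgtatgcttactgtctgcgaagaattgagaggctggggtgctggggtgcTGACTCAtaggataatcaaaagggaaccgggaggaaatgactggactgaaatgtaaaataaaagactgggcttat
Zfas1: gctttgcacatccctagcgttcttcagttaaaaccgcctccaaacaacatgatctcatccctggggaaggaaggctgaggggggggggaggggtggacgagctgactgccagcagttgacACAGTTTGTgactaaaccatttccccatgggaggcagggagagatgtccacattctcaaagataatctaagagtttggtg
Trdmt1: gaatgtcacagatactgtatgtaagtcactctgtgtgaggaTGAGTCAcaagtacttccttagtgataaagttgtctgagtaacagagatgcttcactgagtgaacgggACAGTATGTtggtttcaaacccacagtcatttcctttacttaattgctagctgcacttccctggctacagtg

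The GRE core stands in the Dusp1, 2310043O21Rik, Dennd4c, Zfas1 and Trdmt1 stretches. In 2310043O21Rik the AP-1 and GRE core letters share 1 base. Of the 16 regions read in full, 3 held the GRE core, 4 the single arm and 6 the AP-1 motif. For comparison, 4.51%, 12.9% and 5.48% of 32851 RefSeq promoter windows held them over 200 bases. Matches to the NF-kB letters GGANTTTCC were found in 0 of the 16 regions and in 0.874% of the windows. The C/EBP letters TTGCNNAA were in 3 of 16 (7.47% of windows), the TEAD letters GGAATG in 3 (10.1%) and the RUNX letters TGTGGT in 2 (11.2%). Of the 48 regions read over at least 100 bases, 6 held the GRE core, 7 the single arm, 17 the AP-1, 0 the NF-kB, 5 the C/EBP, 5 the TEAD and 7 the RUNX letters. These regions lie at RefSeq gene starts and are not a sample of all 5836, and a match of letters is not a measured binding site.

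The regions were spread over the whole distance range. Upstream of the gene lay 3486 (59.7%) and downstream 2350 (40.3%). The upstream regions had a median distance of 20.99 kb from the gene start, with 528 within 5 kb, 487 at 5 to 10 kb, 901 at 10 to 25 kb, 816 at 25 to 50 kb and 754 at 50 to 100 kb. Downstream regions had a median of 38.6 kb from the start but 13.8 kb from the nearest edge of the gene, and 599 of them (25.5%) lay within 5 kb of that edge. Because the distance runs from the gene start, downstream regions of long genes fall outside the 100 kb limit, which raises the upstream share by construction.

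At the inner limit of the choice, the peak just left out lay 991 bp upstream of Fzd2. At the outer limit, the farthest region lay 99983 bp from the start of Actn1, 7055 bp past its end, and the next peak left out lay 100130 bp from the start of Ism1.

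**Figure D1:**
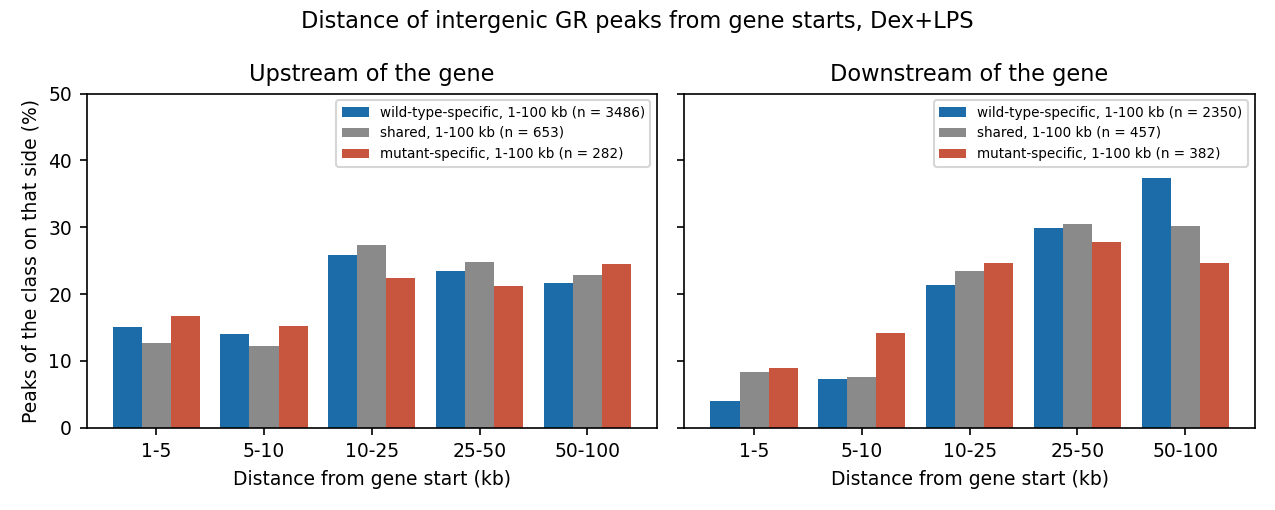
Bars give the percentage of intergenic peaks of each Dex+LPS class, on each side of the gene, in 5 bins of distance from the gene start (kb); n is the number of peaks on that side. Of the wild-type-specific regions, 37.4% of the downstream ones and 21.6% of the upstream ones lay at 50 to 100 kb.

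The same window was applied to the peaks shared by both genotypes (1110 of 3533) and to the mutant-specific peaks (664 of 2187). Side and distance were among the values the choice used, so the shares that follow are descriptions and were given no test. The upstream share was 59.7% of the wild-type-specific regions (exact 95% interval 58.5 to 61.0%), 58.8% of the shared peaks (55.9 to 61.7%) and 42.5% of the mutant-specific peaks (38.7 to 46.3%). With the limits applied to the nearest edge of the gene, a choice made after seeing the data, the upstream shares became 53.6% (wild-type-specific), 54.3% (shared) and 42.5% (mutant-specific). The intervals count peaks, and several peaks can belong to the same gene.

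Within 10 kb of the gene start lay 21.97% of the wild-type-specific regions (1282, interval 20.9 to 23.1%), 21.3% of the shared and 26.8% of the mutant-specific peaks.

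The 5836 regions were assigned to 3479 genes. Of these genes, 2185 had 1 region, 767 had 2 and 527 had 3 or more, and 321 had regions on both sides. By the RefSeq gene table, 2881 of the genes (82.8%) encode proteins, 493 are lncRNA genes and 57 microRNA genes. Of the 3479 genes, 2284 (65.7%) had no shared or mutant-specific peak. The background is higher: 87.4% of all 21896 protein-coding genes had neither, with 65.9% of the 2881 that had a region and 90.7% of the 19015 that had none. A shared peak was also assigned to 965 of the genes, which is 27.7% of them and 40.5% of the 2380 genes with a shared peak. A mutant-specific peak was assigned to 508, which is 14.6% of them and 37.2% of the 1364 genes with such a peak.

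The assignment depends on the annotation. The nearest start in the RefSeq promoter table belonged to the assigned gene for 2612 regions (44.8%). Of the 5836 regions, 1260 (21.6%) lay inside the span of a gene in the RefSeq table, 844 of them in a lncRNA gene and 361 in a protein-coding gene. The centres of 168 (2.88%) were within 1 kb of a RefSeq gene start. The shared and mutant-specific peaks of the same window lay inside a RefSeq gene span in 22.8% and 25.8% of cases. These regions are thus intergenic by the authors' annotation and not by every annotation.

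The 15 genes with most regions, leaving out genes spanning over 1 Mb, are described in turn. The first place went to 1700001F09Rik with 48 regions, 36 of them downstream, beside 9 shared and 2 mutant-specific peaks. Zfp709, a zinc finger gene, had 18 regions, all upstream at 22082 to 72218 bp, with 12 shared and 6 mutant-specific peaks. The proliferin genes Prl2c2 and Prl2c3, which encode prolactin-related hormones, had 11 each, with 5 and 14 mutant-specific peaks. The Prl2c genes are near-identical copies, so the placing of reads among them is uncertain. The pseudogene Gm21944 had 8 regions, at 41431 to 59835 bp upstream. At 1700001F09Rik, Zfp709 and Gm21944 regions lay in dense runs of up to 20, 11 and 6. The placing of reads at these genes was not checked here, so their counts need the same caution. A630001O12Rik (10), 1700016G22Rik (8) and 4930459C07Rik (8) are lncRNA genes.

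Of the other protein-coding genes among the 15, Trabd2b, a membrane protease that inactivates Wnt proteins, had 10 regions, all upstream at 18260 to 69798 bp, and 0 shared or mutant-specific peaks. Dusp1, a phosphatase acting on MAP kinases and a textbook GR target, had 9 regions within 25496 bp of its start. Irf2bp2, a transcriptional co-repressor, had 9 regions and 8 shared peaks. Cd44, the hyaluronan receptor, had 8 regions beside 10 wild-type-specific peaks inside or overlapping the gene, 4 shared and 5 mutant-specific peaks. Cd93, a transmembrane lectin-like receptor, had 8 regions, all upstream, with 1 shared and 0 mutant-specific peaks. Itga5, a subunit of the fibronectin receptor, had 8 regions within 24197 bp of its start. Jun, an AP-1 subunit, had 8, of which 6 lay upstream at 30292 to 55312 bp.

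**Figure D2:**
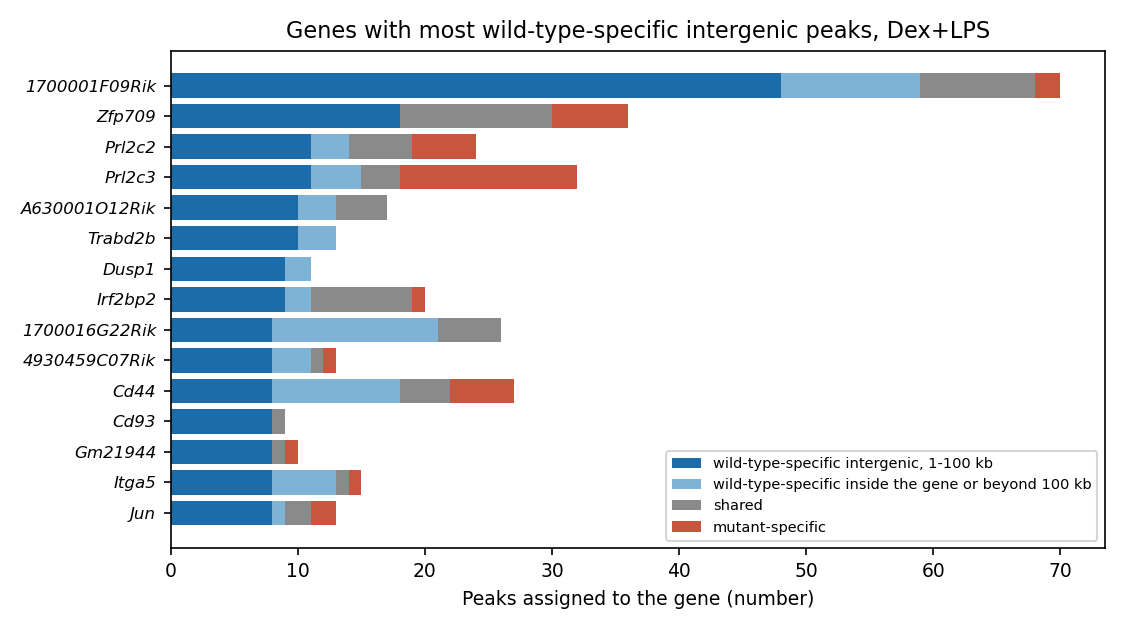
Stacked bars give the number of Dex+LPS peaks assigned to each of the 15 genes with most wild-type-specific intergenic regions, divided into those regions, other wild-type-specific peaks (inside or overlapping the gene, or beyond 100 kb), shared and mutant-specific peaks. Dusp1 and Trabd2b have no shared or mutant-specific peak, while Prl2c3 has 14 mutant-specific ones. Wild-type-specific peaks outside the gene at 1000 bp or less from its start are not drawn.

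At Dusp1 (chromosome 17, 26505591 to 26508472, minus strand) the regions lay on both sides. The upstream ones lay 4278, 6406, 21580, 22380 and 25496 bp from the start, and the downstream ones 3182, 4150, 4710 and 19640 bp. The nearest, chr17:26505191-26505390, was 201 bp past the end of the gene. The wild-type-specific list held 2 more peaks inside or overlapping the gene, and the shared and mutant-specific lists held 0 for Dusp1.

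Genes were counted by lists of known function, each beside all 21896 protein-coding genes, of which 13.2% had a wild-type-specific region of this window, 3.23% a shared and 1.79% a mutant-specific intergenic peak. Of 45 known GR targets, 17 (37.8%) had a region, with 42 regions in all, while 7 had a shared and 11 a mutant-specific peak of the same window. Besides Dusp1, the serum- and glucocorticoid-inducible kinase gene Sgk1 had 4 regions, all upstream at 32762 to 91680 bp. Klf4, a zinc finger transcription factor, had 4, and Tnfaip3, which encodes the ubiquitin-editing protein A20, had 4. Unlike Dusp1, these genes also had mutant-list peaks: Tnfaip3 had 5 shared and 6 mutant-specific ones and Klf4 had 4 and 1. Sgk1 had 1 of each. Of the 17 targets with a region, 11 had a shared or mutant-specific peak, so Dusp1 was not the only one without.

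Inflammatory genes included chemokines and growth factors with several regions. Of 40 listed genes, 23 (57.5%) had a region, 16 a shared and 8 a mutant-specific intergenic peak within 100 kb, and the median was 1.5 regions per gene. Csf1, a macrophage growth factor, had 5 regions, beside 9 shared and 5 mutant-specific peaks. Cxcl1, a neutrophil chemokine, had 5 regions, 1 shared and 0 mutant-specific peaks. Ccl5, a chemokine for T cells and monocytes, had 4 regions, all upstream within 13900 bp, 2 shared and 0 mutant-specific peaks. No count of a gene list was tested here, and neighbouring genes of a family can share a peak's territory.

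Extracellular matrix and fibroblast genes had the highest share, 23 of 36 (63.9%), with 73 regions. Of the 23, 18 also had a shared or mutant-specific peak, while 65.7% of all 3479 genes with a region had neither. The same count was 17 of the 23 inflammatory genes with a region, 11 of 17 known GR targets and 0 of 5 neuronal genes. Lox, which cross-links collagen and elastin, had 8 regions, 5 of them upstream, with 9 further wild-type-specific peaks inside or overlapping the gene, 1 shared and 2 mutant-specific peaks. Col6a2, a collagen VI chain, had 7, all upstream at 10762 to 41588 bp. It had 0 shared or mutant-specific peaks and no wild-type-specific one inside or overlapping the gene or beyond 100 kb. Cyr61, a matricellular protein gene, had 7 regions at 5423 to 53233 bp, 0 shared and 3 mutant-specific peaks. Col5a1, a collagen V chain, had 5 regions, all upstream from 24353 bp, and 0 shared or mutant-specific peaks.

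Of 15 AP-1 family genes, 5 had a region, and Jun (8) and Fosl2 (6) gave 14 of the 18 regions. Fosl2 had 4 regions downstream, and the nearest of the 6 lay 1458 bp from the start. Fos had 2, and Batf3 and Fosl1 had 1 each. Of 20 circadian clock genes, 5 had a region (Arntl 2, Bhlhe40 2, Nfil3, Nr1d1 and Rorb 1 each), 2 a shared and 0 a mutant-specific peak of this window. The regions at Arntl, the partner of Clock in the core loop, lay 21123 and 23405 bp upstream. The region at Nr1d1, a clock repressor, lay 8305 bp upstream.

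Interferon response genes had a wild-type-specific region in 4 of 25 cases (16.0%), against 1 with a shared and 12 (48.0%) with a mutant-specific intergenic peak within 100 kb. Ifnb1, the interferon beta gene, had 2 regions, 6920 and 14798 bp away. It had no shared or mutant-specific peak and no wild-type-specific one inside or overlapping the gene or beyond 100 kb. Isg15, a ubiquitin-like protein gene, had 1 region 2100 bp from its start. Gbp2, an interferon-induced GTPase gene, had 1 region beside 9 mutant-specific peaks, none of which lay in the window. Mx2, which the RefSeq table lists as a transcribed pseudogene, had 1 region beside 12 mutant-specific peaks, again none in the window.

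Adipogenesis genes had a region in 4 of 25 cases (Lpl 2, Angptl4, Cebpa and Ebf2 1 each) and ribosomal and housekeeping genes in 5 of 20, among them Actb with 2 and Rpl3 and Rps6 with 1 each. Markers of other cell types were counted too. A region lay at 0 of 15 macrophage, 4 of 12 endothelial (33.3%), 5 of 12 neuronal (41.7%) and 1 of 12 liver genes (8.33%). The neuronal share was thus above that of known GR targets (37.8%). The adipogenesis, housekeeping, endothelial and neuronal shares were above that of all protein-coding genes (13.2%), and the macrophage and liver shares below it. Among endothelial genes, Flt1 had 3, Cldn5 and Kdr 2 each and Emcn 1. Tubb3 had 2 and Gap43, Nefl, Nefm and Snap25 1 each, and Apob had 2. Peaks give no expression level, so these counts do not check the identity of the cells.

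**Figure D3:**
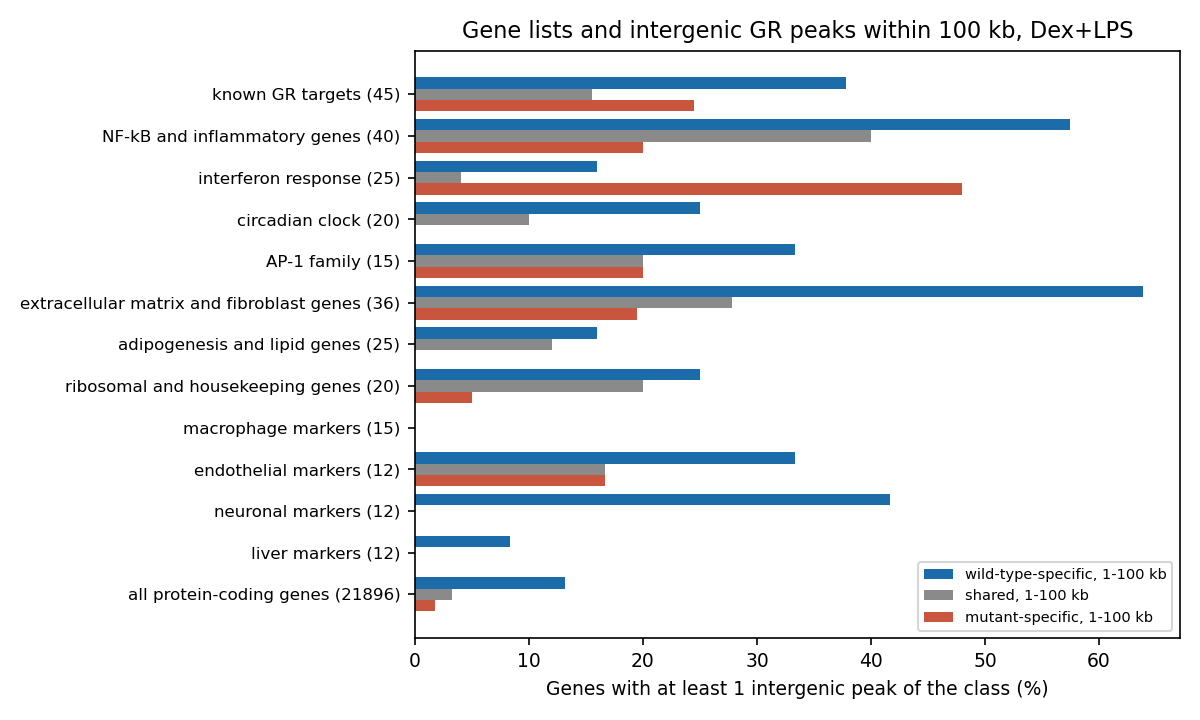
Bars give the percentage of genes in each list (number of genes in parentheses) with at least 1 intergenic peak of a class at 1 to 100 kb from the start, with all 21896 protein-coding genes as the last row. Matrix genes (63.9%) and inflammatory genes (57.5%) lead for wild-type-specific regions, and interferon genes (48.0%) for mutant-specific peaks.

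The regions lay near other wild-type-specific peaks. The nearest other peak of that list was at a median of 13.7 kb between centres, and 2508 regions (43.0%) had one within 10 kb. A shared peak lay within 10 kb of 822 regions (14.1%; median distance 130 kb) and a mutant-specific peak within 10 kb of 406 (6.96%; median 404 kb). The lists hold 18953, 3533 and 2187 peaks, so a longer list gives a nearer neighbour for that reason alone. In all, 1053 regions (18.04%) had a shared or mutant-specific peak within 10 kb, and 15.5% did outside chromosomes 10 to 14.

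**Figure D4:**
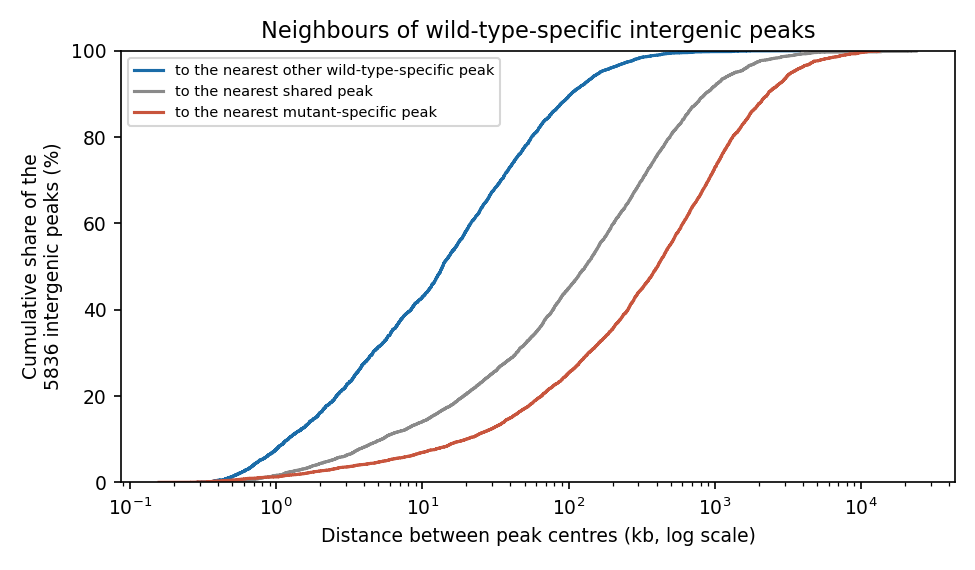
Lines give the cumulative percentage of the 5836 wild-type-specific intergenic regions whose nearest peak of each list lies within a given distance between centres (kb, log scale). The line for other wild-type-specific peaks reaches 43.0% at 10 kb, against 14.1% for shared and 6.96% for mutant-specific peaks.

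Joined where centres were at most 5 kb apart, the regions formed 4878 runs, of which 717 held at least 2 regions, 146 at least 3 and 15 at least 5. The runs with most regions were 3 at 1700001F09Rik on chromosome 14, with 20, 14 and 11 regions, and 1 of 11 regions at Zfp709. A run of 7 regions, 10.1 kb long, lay downstream of E2f6 at 30187 to 40041 bp from its start (chr12:16841052-16851105). Another run of 7 at Itga5 was 15.0 kb long (chr15:103368065-103383052), and a run of 5 at Cd44 was 4.90 kb long (chr2:102806052-102810955).

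The Dex libraries were not used in choosing the regions. A peak of wild-type Dex library 1 overlapped 16 of the 5836 regions (0.274%) and one of library 2 overlapped 17 (0.291%), while both mutant libraries overlapped 0, which allows a share of up to 0.0514%. Both wild-type libraries were thus above both mutant libraries. The mutant libraries also overlapped 0 of the 1110 shared and 0 of the 664 mutant-specific peaks of the window. They overlapped 0 of the 3208 wild-type-specific peaks beyond 100 kb, so a count of 0 was not particular to these regions. Of the 9015 wild-type-specific peaks inside genes, mutant library 1 overlapped 0 and mutant library 2 overlapped 1. The means were 0.283% ± 0.0121 (SD, n = 2) and 0% (n = 2), and the exact permutation test (two-sided) gave p = 0.33, the smallest that 2 against 2 libraries allow. The wild-type Dex lists held 412 and 854 peaks and the mutant lists 53 and 60, and the part of list size in the difference was not tested. Outside chromosomes 10 to 14 the counts were 6 and 4 of 4031 regions, and the mean share was 0.124%.

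Of the 28 regions found in either wild-type Dex library, 5 were in both, 11 in library 1 alone and 12 in library 2 alone. They belonged to 28 genes, 16 lay upstream, and 20 were on chromosomes 10 to 14. The nearest to a gene start of the 5 in both lay 4999 bp upstream of Wee1, which encodes a kinase that restrains entry into mitosis (chr7:110116960-110117159). The second lay 8442 bp upstream of Serpinb9g, of the serpin family of protease inhibitors (chr13:33476249-33476448). The third lay 28826 bp from the start of Anapc16, a subunit of the anaphase-promoting complex (chr10:59974187-59974386). The others lay 39150 bp from the start of Tarm1 (chr7:3463303-3463502) and 90979 bp upstream of Adra1b, an adrenergic receptor gene (chr11:43992117-43992316). Among the listed genes, the Rorb region, 48894 bp upstream, was in library 2 alone.

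**Figure D5:**
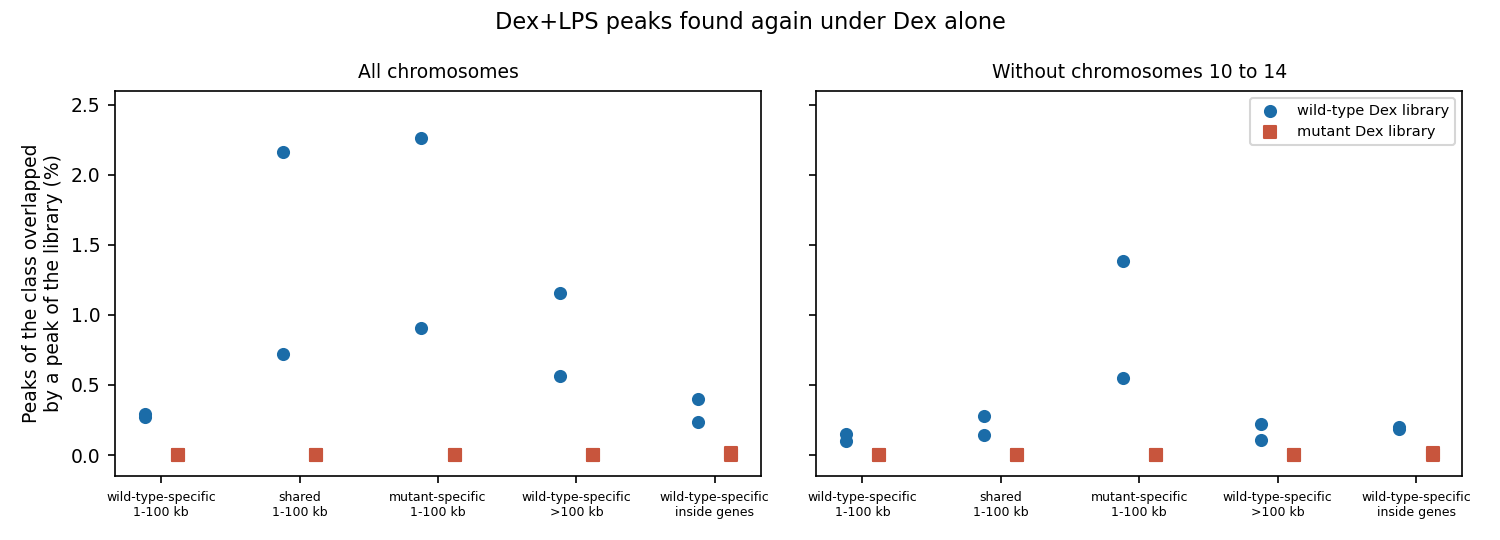
Each point is 1 Dex library, and the y axis gives the percentage of Dex+LPS peaks of a class overlapped by a peak of that library, for all chromosomes and without chromosomes 10 to 14. For the wild-type-specific regions at 1 to 100 kb the wild-type libraries stand at 0.274% and 0.291% and the mutant libraries at 0%.

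The share of regions with a peak in either wild-type Dex library, 0.480% (28 of 5836, exact interval 0.319 to 0.693%), stands beside 0.696% of all wild-type-specific peaks. It was below that of wild-type-specific intergenic peaks beyond 100 kb (52 of 3208, 1.62%; Fisher's exact test, adjusted p = 1.29e-07 over 4 tests), shared peaks of the same window (31 of 1110, 2.79%; adjusted p = 3.24e-10) and mutant-specific peaks of the same window (20 of 664, 3.01%; adjusted p = 2.45e-08). Against wild-type-specific peaks inside genes (49 of 9015, 0.544%) the difference did not pass (Fisher's exact test, adjusted p = 0.641).

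These differences moved with a few chromosomes and with 1 library. Of the wild-type Dex peaks, 68.2% (library 1) and 73.9% (library 2) lay on chromosomes 10 to 14, against 26.4% and 31.7% of the mutant ones. Those chromosomes held 30.9% of the regions, 42.8% of the peaks beyond 100 kb, 26.9% of those inside genes, 35.5% of the shared and 45.5% of the mutant-specific peaks of the window. Without them, the difference was -0.0740 percentage points against the class beyond 100 kb (Fisher's exact test, adjusted p = 0.560) and -0.221 points against shared peaks (adjusted p = 0.447). The one against mutant-specific peaks, -1.46 points, still passed (Fisher's exact test, adjusted p = 0.00204). It rested on few peaks, 8 of 4031 regions against 6 of 362 mutant-specific peaks. Without wild-type Dex library 2 none of the 4 passed (Fisher's exact test, lowest adjusted p = 0.0619). With only peaks found in both wild-type libraries none passed either (Fisher's exact test, adjusted p = 1.00 in each).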

How the data were processed

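Per the submitters' processing notes, BWA 0.7.13, Picard 1.119 and MACS2 2.1.0 and build mm10 were used, with no role given. Per the file names, the Dex+LPS lists are merged, hold wild-type-specific, mutant-specific or overlapping peaks, and had knockout peaks removed. How the libraries were merged is not stated in the sources used here. The deposited values are positions and distances in bp. The distance runs from the gene start to the peak centre. Read totals of the libraries were not analysed here. The Dex libraries had 1 list each; no source used here states whether they were separate cultures, so p-values over them may reflect technical spread only.

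Overlap of at least 1 bp counted as shared and was tested against bedtools 2.31.1 on made-up intervals. Peak classes were set against each other with two-sided Fisher's exact tests over peaks, with Benjamini-Hochberg adjustment and a threshold of 0.05, and Dex libraries by an exact permutation test. Planned Fisher tests of side and of distance were computed but are not reported, since the choice of regions used those values. Intervals are exact (Clopper-Pearson, 95%) and cover counting error only. The limit for a count of 0 is 3 counts. Of the 3479 genes with a region, 3478 matched the RefSeq gene table (GRCm38.p6). Opposite-strand promoter windows that overlapped held the same bases in 1683 of 1683 pairs. Named genes are the 15 with most regions (genes spanning over 1 Mb left out) and up to 4 per list, and the Dex regions in both wild-type libraries; others named were chosen after their values were seen. The regions and lists were chosen with earlier results of these data known. Motif shares over all regions were not analysed here. Python 3.11.15, numpy 2.4.6, pandas 2.3.3, scipy 1.17.1, statsmodels 0.14.6 and matplotlib 3.10.9 were used. Values of a few genes are not reported here.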

Additional observations from a re-analysis of the deposited data

How the results depend on the processing

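Values are differences in percentage points, wild-type-specific regions minus the class named. The Dex share differences of -1.14 (beyond 100 kb), -0.0638 (inside genes), -2.31 (shared) and -2.53 (mutant-specific) kept direction and call with an overlap of 100 bp, centres within 500 bp, an outer limit of 50 kb or an inner limit of 5 kb. Without chromosomes 10 to 14 the calls beyond 100 kb (-0.0740) and against shared peaks (-0.221) were lost. With peaks in both wild-type Dex libraries, -0.00784 (beyond 100 kb), -0.00441 (shared) and -0.0649 (mutant-specific) no longer passed. Leaving out each wild-type Dex library gave -0.862 to -0.287 beyond 100 kb, -0.108 to 0.0412 inside genes, -1.87 to -0.447 for shared and -1.97 to -0.629 for mutant-specific peaks, and the calls were lost without library 2. The upstream difference against shared peaks (0.904), like the next ones given without a test, was 3.75 with an outer limit of 50 kb and was -0.678 with limits set from the gene edge, an alternative chosen after seeing the data. The difference within 10 kb against shared peaks (0.706) was -0.616 without chromosomes 10 to 14 and 5.53 with the nearest peak per gene; against mutant-specific peaks (-4.84) it was 1.02. The nearest-peak setting kept 3479 of the 5836 regions, 875 of the 1110 shared and 483 of the 664 mutant-specific peaks. The share with a mutant-list peak within 10 kb was 15.5% without chromosomes 10 to 14. The cause of these changes was not tested.

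The wild-type minus mutant Dex difference, 0.283 points, ranged from 0.274 to 0.291 when a library was left out and was 0.124 without chromosomes 10 to 14. As a replicate block, with libraries paired by number, it was 0.283 with an exact permutation p = 0.5, the smallest that 2 pairs allow. Both mutant values are 0, so whether the numbers pair the libraries could not be checked. Genes with a region numbered 2819 with a 50 kb limit and 3520 by the nearest RefSeq start. The planned motif comparison across all regions was not run. Depth limits every statement on missing peaks.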

Other observations

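The wild-type-specific and mutant-specific lists were not fully disjoint in position. The region 8970 bp upstream of Insc (chr7:114736696-114736895) shared bases with a mutant-specific peak whose centre lay 158 bp away, the only such case among the 5836 regions. In all, 30 regions had the centre of a mutant-specific peak within 500 bp and 11 that of a shared peak. The X chromosome held 47 of the regions (0.805%) and chromosome 1 held 480 (8.22%).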
